A study of Mus musculus with 18 samples.

Results

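The genes described here were the peroxisome proliferator-activated receptors (Pparg, Ppara and Ppard), their retinoid X receptor partners (Rxra, Rxrb and Rxrg), the coactivators PGC-1α and PGC-1β (Ppargc1a and Ppargc1b) and the liver X receptor LXRα (Nr1h3), 9 genes in all. They were chosen by name, and each was read from a probe set naming that gene alone, the brightest on average where there were several. All 9 had such a probe set, of 19938 genes on the array that did, and Ppargc1a had a further one. Adipocytes were taken from the bone marrow of the femurs and tibias and from the epididymal fat pad (called peripheral in the sample labels) of male C57BL/6J mice on standard chow, aged 6, 14 or 18 months. The sample labels name no genetic change and no drug in any group. Each of the 6 groups (bone marrow 6, 14 and 18 months; epididymal 6, 14 and 18 months) had 3 arrays (Affymetrix Mouse Gene 1.0 ST), and each array was hybridised with RNA pooled from several animals. The cells were those that floated on centrifugation, with no sorting step: marrow was flushed out and its red cells lysed, whereas the fat pad was digested with collagenase. Arrays are called replicates 1, 2 and 3 within a group, and values are given in that order. Since every value came from a pool, the spread between replicates is that between pools and leaves out the variation between single mice.

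PPARγ is the master transcription factor of fat cell differentiation and maintains the lipid storage program of mature adipocytes. Like PPARα, PPARδ and LXRα it binds DNA as a heterodimer with an RXR, and its activity depends on fatty acid ligands and on coregulators. PPARα and PPARδ drive genes of fatty acid oxidation, LXRα responds to oxysterols, and the PGC-1 proteins coactivate these receptors and raise mitochondrial biogenesis and oxidative metabolism.

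Upstream sequences of the genes on which the results below turn are shown first, since Pparg, Rxrg and Ppargc1a were among the 4 members that rose from 14 to 18 months in epididymal adipocytes, and Rxrb was the single member with a higher value in bone marrow on the deposited scale. Each sequence is the 250 bases before a transcript start in RefSeq on the mouse build GRCm38.p6, written 5′ to 3′ on the gene's own strand. Capitals mark matches, on either strand, to the nuclear receptor element AGGTCA, the CCAAT box CCAAT or the GC box GGGCGG.
Pparg window 1 (chr6:115360894-115361143, plus strand): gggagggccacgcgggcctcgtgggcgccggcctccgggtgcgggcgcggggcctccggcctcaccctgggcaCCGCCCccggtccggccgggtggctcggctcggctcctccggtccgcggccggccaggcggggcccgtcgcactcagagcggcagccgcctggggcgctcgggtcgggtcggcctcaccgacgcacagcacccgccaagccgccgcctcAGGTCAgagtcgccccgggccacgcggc
Pparg window 3 (chr6:115421816-115422065, plus strand): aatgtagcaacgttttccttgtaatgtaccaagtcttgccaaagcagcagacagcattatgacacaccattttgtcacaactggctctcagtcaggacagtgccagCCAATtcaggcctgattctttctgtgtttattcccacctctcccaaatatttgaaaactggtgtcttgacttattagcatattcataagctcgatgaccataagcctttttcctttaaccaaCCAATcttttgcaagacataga
Rxrg window 1 (chr1:167598112-167598361, plus strand): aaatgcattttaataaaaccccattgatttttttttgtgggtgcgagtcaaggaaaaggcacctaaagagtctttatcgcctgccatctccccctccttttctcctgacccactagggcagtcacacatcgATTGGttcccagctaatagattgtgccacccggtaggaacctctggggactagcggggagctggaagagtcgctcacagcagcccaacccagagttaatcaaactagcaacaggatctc
Ppargc1a window 1 (chr5:51567726-51567975, minus strand): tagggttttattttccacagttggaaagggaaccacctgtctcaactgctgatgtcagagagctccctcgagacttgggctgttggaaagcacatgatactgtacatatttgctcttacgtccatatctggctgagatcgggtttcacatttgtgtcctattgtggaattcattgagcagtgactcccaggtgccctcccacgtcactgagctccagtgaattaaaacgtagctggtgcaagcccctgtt
Rxrb window 1 (chr17:34031562-34031811, plus strand): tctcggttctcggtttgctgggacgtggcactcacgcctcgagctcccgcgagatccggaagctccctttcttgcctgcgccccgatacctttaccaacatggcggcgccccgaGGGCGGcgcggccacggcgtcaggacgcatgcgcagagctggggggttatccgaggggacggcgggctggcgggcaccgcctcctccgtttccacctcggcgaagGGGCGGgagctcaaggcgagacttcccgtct
The first Pparg window was 82.4% G and C and held both an AGGTCA element and a GC box, whereas the third, with 40.8% G and C, held a pair of CCAAT boxes and neither of the others. Of the pair of windows listed for each of Rxrg and Rxrb, the first is shown: that of Rxrg held a CCAAT box and that of Rxrb held GC boxes alone. The other Rxrg window held AGGTCA and no CCAAT, the other Rxrb window again held GC boxes alone, the second Pparg window, not shown, held all of these elements, and none of these letters stood in the Ppargc1a window. Over the 14 windows listed for 8 of the 9 genes, 4 held AGGTCA, 4 held CCAAT and 7 held GGGCGG, against 14%, 33.8% and 32.7% of the 32851 windows of all genes. The DR1 element of PPAR and RXR dimers, a direct repeat of AGGTCA with a spacer of 1 base, which thus overlaps the single element, was in 0 of the 14 windows and in 0.0335% of all windows. A match is a description of the letters only, and the array gives a single value per probe set over all starts of a gene.

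Array values were log2 expression values with array medians between 5.33 and 5.65. Probe sets of 1035 odorant receptor genes, which fat and marrow cells are not known to use, served as a low-signal reference: their 95th percentile lay between 4.84 and 5.22 on the 18 arrays, and a member under it on every array of a group has only a bound there. The marker genes of the 7 cell types checked set the preparations apart. All 13 mature adipocyte markers were lower in bone marrow over the ages, with a median log2 difference of -5.76, although 11 of them exceeded the low-signal limit on all 9 bone marrow arrays and Acvr1c exceeded it on none. The mean of the adipocyte list lay between 6.38 and 7.13 on the bone marrow arrays and between 12.15 and 12.62 on the epididymal arrays. Over the ages, markers of blood cells were higher in bone marrow (16 of 16 for neutrophils, 16 of 16 for macrophages and monocytes, 11 of 12 for the B lineage and 9 of 9 for red cell precursors), whereas 11 of 12 endothelial and 12 of 13 fibroblast and mesothelial markers were lower there. At 14 months alone, 7 of the 16 macrophage and monocyte markers were higher in bone marrow and 4 were lower (median 0.35). Macrophage markers also moved with age in the fat pad, with a list mean of 7.41 to 7.71 at 6 months, 9.23 to 9.83 at 14 months and 6.29 to 6.43 at 18 months. Epididymal 6-month replicate 1 stood apart, since its neutrophil list mean was 8.67 where those of the other epididymal arrays were at most 6.90. In pooled RNA of floated cells, fewer adipocytes and less of an RNA per adipocyte cannot be told apart, and the part of these markers in the differences given below was not tested.

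**Figure D1:**
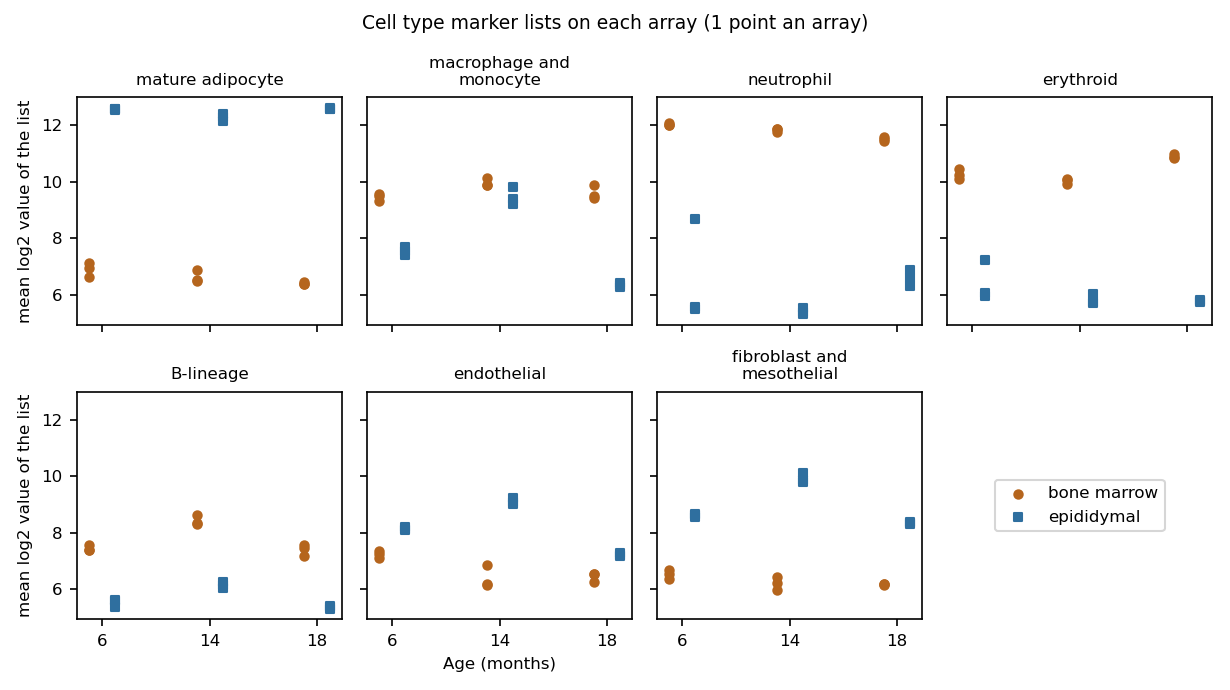
Mean log2 value (vertical axis) of 7 cell type marker lists on each of the 18 arrays, by age in months, with bone marrow as circles and epididymal fat as squares. The adipocyte list is between 6.38 and 7.13 in bone marrow and between 12.15 and 12.62 in epididymal samples, and the macrophage list of epididymal samples is highest at 14 months (9.23 to 9.83).

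The first question was whether the receptors and coactivators differed between the 2 fat depots. Over the 3 ages, 8 of the 9 genes were lower in bone marrow than in epididymal adipocytes and Rxrb was higher on the deposited scale (limma, adjusted p under 0.05), and 5 of the 8 differed by at least 2-fold. Of all 23410 probe sets naming a gene, 58.1% passed the same test (31.2% lower and 26.9% higher), and 21.8% also differed by at least 2-fold. The arrays of the depots did not overlap for 6 members, a separation seen for 27.6% of all probe sets. The median log2 difference was -1.04 over the 9 genes and -0.02 over all probe sets. At single ages 1 member was higher and 7 were lower at 6 months (46.3% of all probe sets called), 1 and 5 at 14 months (45.8%) and 1 and 8 at 18 months (47.1%). Setting the 59 ribosomal protein genes equal between groups shifted all bone marrow values by a median of -0.68 relative to epididymal ones, and Rxrb then had a log2 difference of -0.11 (adjusted p = 0.164), so that its direction rests on the scaling. Without epididymal 6-month replicate 1, Ppard over the ages (log2 difference -0.25, adjusted p = 0.064) and Rxra between 18 and 6 months in bone marrow (-0.48, adjusted p = 0.0514) missed the threshold, and no other test of a member crossed it.

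**Figure D2:**
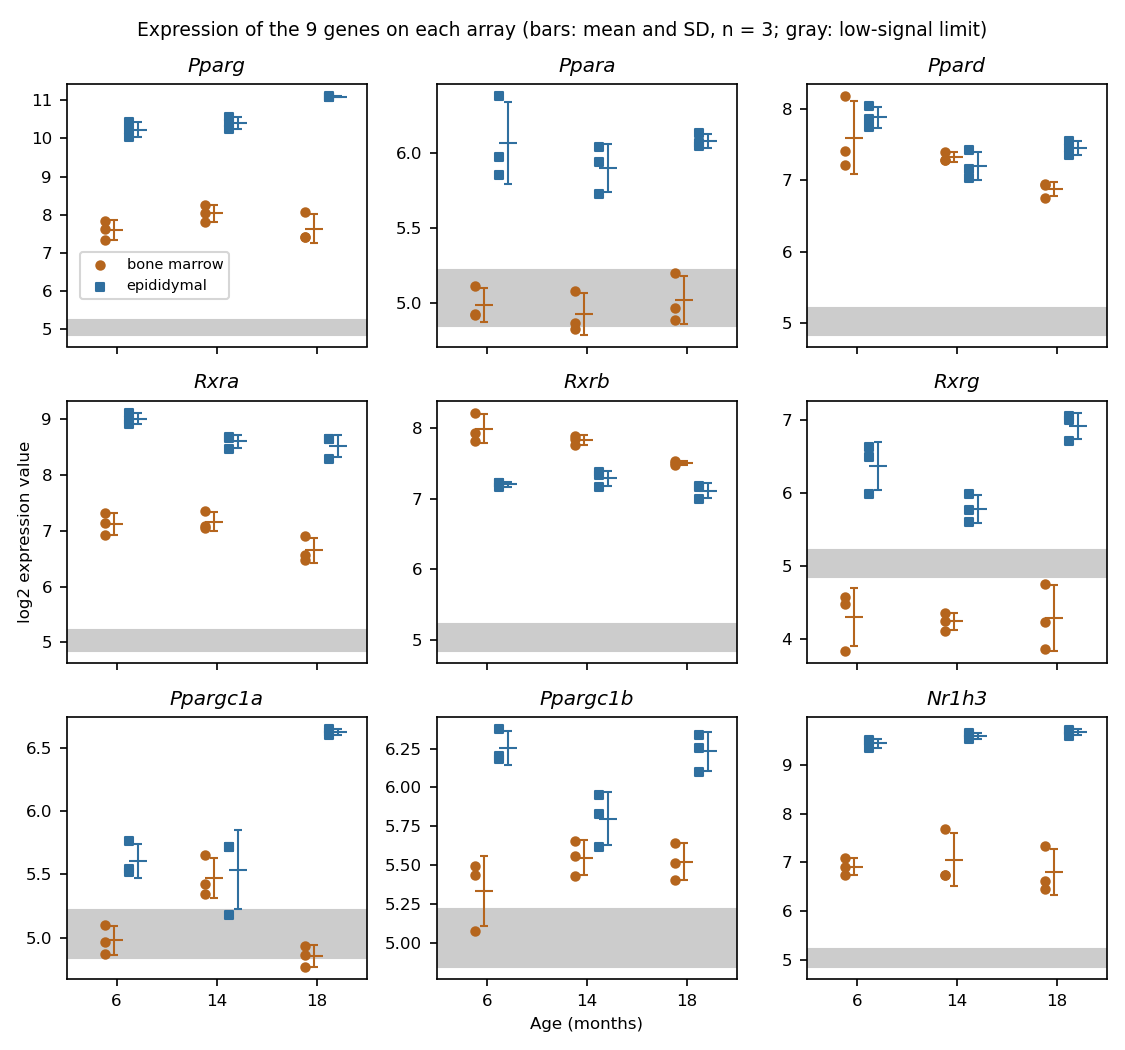
Log2 expression value (vertical axis, a separate scale for each gene) of the 9 genes on every array by age in months; points are arrays, bars give mean and SD of 3 arrays, and the gray band spans the low-signal limit over the arrays (4.84 to 5.22). Bone marrow circles lie below the epididymal squares at every age for Pparg, Ppara, Rxra, Rxrg and Nr1h3, and the bone marrow values of Rxrg lie under the band.

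Pparg had the largest fitted difference over the ages of the 9 genes, although Rxrg has only a bound in marrow and at 14 months Nr1h3 differed by more (-2.55, against -2.37 for Pparg). Its log2 values in bone marrow were 7.83, 7.63 and 7.32 at 6 months, 8.26, 7.81 and 8.03 at 14 months and 7.42, 8.07 and 7.40 at 18 months. In epididymal adipocytes they were 10.43, 10.23 and 10.04 at 6 months, 10.24, 10.41 and 10.56 at 14 months and 11.09, 11.08 and 11.11 at 18 months. The highest bone marrow array, at 8.26, was thus well below the lowest epididymal array, at 10.04. Over the ages Pparg was 7.08-fold lower in bone marrow (log2 difference -2.82, SE 0.10, adjusted p = 6.57e-15). The difference was -2.64 at 6 months, -2.37 at 14 months and -3.46 at 18 months (SE 0.18 each). Ordered by group mean, the 18-month epididymal group (11.09 ± 0.01, SD, n = 3) came first, ahead of the 14-month (10.40 ± 0.16) and 6-month (10.24 ± 0.19) epididymal groups, which did not differ beyond their spread. The bone marrow groups followed at 8.03 ± 0.23 (14 months), 7.63 ± 0.38 (18 months) and 7.59 ± 0.26 (6 months), and none of their differences passed the test.

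Ppara, the oxidative receptor best known from liver, was 2.06-fold lower in bone marrow over the ages (log2 difference -1.04, SE 0.08, adjusted p = 5.59e-10). Its bone marrow arrays ran from 4.83 to 5.20 with a median of 4.92, and its epididymal arrays from 5.73 to 6.38 with a median of 6.04. The groups did not overlap at any age, and the log2 difference was -1.09 at 6 months, -0.98 at 14 months and -1.07 at 18 months. However, Ppara exceeded the low-signal limit on 5 of the 9 bone marrow arrays only, against 9 of 9 epididymal arrays, which limits how well its level in marrow was measured.

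Ppard, the broadly expressed receptor of the family, differed least. Its bone marrow values were 8.17, 7.22 and 7.41 at 6 months, 7.28, 7.29 and 7.40 at 14 months and 6.94, 6.76 and 6.94 at 18 months. The epididymal values were 7.86, 8.04 and 7.75, then 7.42, 7.04 and 7.16, then 7.55, 7.35 and 7.46 at the same ages. The groups overlapped at 6 and 14 months and were apart at 18 months, when Ppard was 1.49-fold lower in bone marrow (log2 difference -0.57, SE 0.18, adjusted p = 0.0119). The difference over the ages (-0.24, SE 0.10) barely passed the test (adjusted p = 0.0499) and missed it in 15 of the 18 fits that left out 1 array (-0.26 to -0.18 there, adjusted p = 0.0524 to 0.116).

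The 3 RXRs did not follow a common pattern. Rxra, the main RXR of fat and liver, had bone marrow values of 7.14, 7.31 and 6.92 at 6 months, 7.36, 7.05 and 7.09 at 14 months and 6.47, 6.90 and 6.56 at 18 months. Its epididymal values were 8.997, 9.12 and 8.93 at 6 months, 8.47, 8.69 and 8.66 at 14 months and 8.64, 8.64 and 8.29 at 18 months. Every bone marrow array was lower than every epididymal array. Over the ages Rxra was 3.33-fold lower in bone marrow (log2 difference -1.74, SE 0.08, adjusted p = 4.21e-13).

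Rxrb, the widely expressed RXR, was 1.49-fold higher in bone marrow over the ages (log2 difference 0.57, SE 0.06, adjusted p = 1.51e-07), a direction that turned to -0.11 when ribosomal protein genes were set equal. Its bone marrow values were 7.82, 8.22 and 7.93 at 6 months, 7.89, 7.85 and 7.76 at 14 months and 7.48, 7.53 and 7.51 at 18 months. The epididymal values stayed between 6.99 and 7.37 with a median of 7.18, all below the lowest bone marrow array. The difference was 0.79 at 6 months, 0.54 at 14 months and 0.39 at 18 months on the deposited scale, and -0.06, -0.01 and -0.25 with ribosomal protein genes set equal.

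Rxrg, the RXR with the most restricted tissue range, was above the low-signal limit on all 9 epididymal arrays and on 0 of 9 bone marrow arrays. The epididymal values were 6.62, 6.49 and 5.99 at 6 months, 5.76, 5.98 and 5.60 at 14 months and 7.04, 6.99 and 6.71 at 18 months, whereas bone marrow ran from 3.84 to 4.75. Since the marrow level has only a bound, Rxrg was at least 2.61-fold lower in bone marrow over the ages, at least 2.62-fold at 6 months, at least 1.80-fold at 14 months and at least 3.78-fold at 18 months. The adjusted p of the fitted difference over the ages was 1.86e-11.

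Nr1h3, which encodes the oxysterol receptor LXRα and is itself induced by PPARγ in fat cells, was 6.301-fold lower in bone marrow over the ages (log2 difference -2.66, SE 0.13, adjusted p = 5.16e-13). In bone marrow its values were 6.91, 6.73 and 7.09 at 6 months, 7.68, 6.73 and 6.75 at 14 months and 6.46, 7.35 and 6.61 at 18 months. In epididymal adipocytes they were 9.51, 9.50 and 9.35 at 6 months, 9.54, 9.66 and 9.62 at 14 months and 9.71, 9.73 and 9.60 at 18 months. The epididymal arrays kept within 9.35 and 9.73 and the bone marrow arrays within 6.46 and 7.68, the latter with single high arrays at 14 months (7.68) and 18 months (7.35), and the depots did not overlap.

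The coactivators differed less between depots than Pparg, Rxra or Nr1h3, and their differences depended on age. Ppargc1a had bone marrow values of 5.10, 4.88 and 4.97 at 6 months, 5.34, 5.43 and 5.65 at 14 months and 4.77, 4.87 and 4.94 at 18 months. Its epididymal values were 5.54, 5.52 and 5.76 at 6 months, 5.18, 5.72 and 5.72 at 14 months and 6.65, 6.60 and 6.62 at 18 months. The depots were apart at 6 and 18 months and overlapped at 14 months, and the marrow values exceeded the low-signal limit on 5 of 9 arrays. Bone marrow was 1.54-fold lower at 6 months (log2 difference -0.63, adjusted p = 7.35e-04) and 3.40-fold lower at 18 months (-1.76, adjusted p = 1.61e-09), and the difference at 14 months was -0.07 (adjusted p = 0.748). The other Ppargc1a probe set, which exceeded the limit on 2 of 18 arrays, had differences of -1.09, -0.12 and -1.79 at the same ages.

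Ppargc1b, the coactivator tied to mitochondrial and lipogenic genes, had bone marrow values of 5.44, 5.49 and 5.08 at 6 months, 5.56, 5.43 and 5.65 at 14 months and 5.41, 5.52 and 5.65 at 18 months. Its epididymal values were 6.18, 6.20 and 6.38 at 6 months, 5.62, 5.95 and 5.83 at 14 months and 6.26, 6.10 and 6.34 at 18 months. As for Ppargc1a, the depots overlapped at 14 months alone. The log2 difference was -0.92 at 6 months (adjusted p = 5.97e-06), -0.25 at 14 months (adjusted p = 0.125) and -0.71 at 18 months (adjusted p = 1.13e-04).

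**Figure D3:**
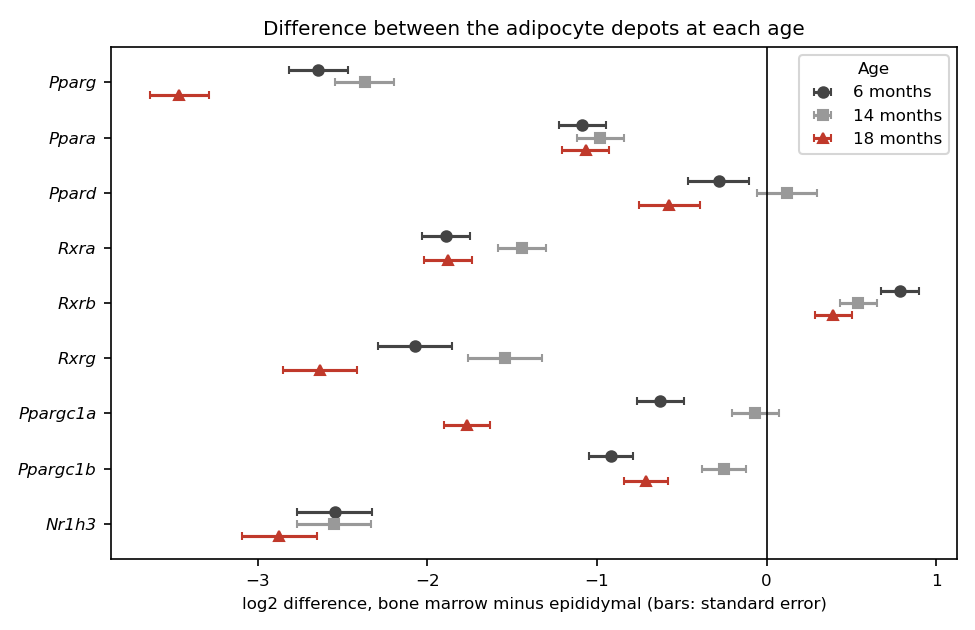
Log2 difference, bone marrow minus epididymal (horizontal axis), for each gene at 6, 14 and 18 months; points are the fitted differences and bars their standard errors. Pparg reaches -3.46 at 18 months, Ppargc1a moves from -0.63 to -0.07 to -1.76, and Rxrb lies above 0 (0.79, 0.54 and 0.39). All points are on the deposited scale. The differences of Rxrb with ribosomal protein genes set equal, which were below 0, are not drawn.

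The second question was which members changed with age in bone marrow adipocytes. An overall test of the 3 ages was passed by 4 of 9 members, Ppard, Rxra, Rxrb and Ppargc1a, where 18.5% of all probe sets passed it. Ppard (log2 change -0.72, SE 0.18, adjusted p = 0.0184), Rxrb (-0.48, SE 0.11, adjusted p = 0.0118) and Rxra (-0.48, SE 0.14, adjusted p = 0.0442) fell between 6 and 18 months, a direction in which 5.13% of all probe sets were called (8.5% in both directions). The bone marrow arrays of Rxrb at 18 months (7.48 to 7.53) lay entirely under those at 6 months (7.82 to 8.22). Over the same interval 9 of 12 endothelial markers fell in marrow (median -0.72; list mean 7.10 to 7.35 at 6 months and 6.28 to 6.55 at 18 months), as did 3 of 13 adipocyte markers (median -0.53; list mean 6.64 to 7.13 and 6.38 to 6.44), and their part in the falls of Ppard, Rxrb and Rxra was not tested. Rxra also fell from 14 to 18 months (-0.52, adjusted p = 0.0195). Ppargc1a rose from 6 to 14 months by 0.49 (SE 0.14, adjusted p = 0.0303, where 8.66% of probe sets were called) and fell from 14 to 18 months by 0.61 (adjusted p = 0.00519, where 13% were called), so that its 3 marrow arrays at 14 months, at 5.34 to 5.65, were above all others from marrow. At 6 and 18 months, however, a single marrow array of each group exceeded the low-signal limit for Ppargc1a. The other Ppargc1a probe set, under the limit on every marrow array, passed in neither interval (0.37, adjusted p = 0.242, and -0.39, adjusted p = 0.191). The call from 6 to 14 months was lost with the mean of the probe sets (0.43, adjusted p = 0.064), with array weights (0.54, adjusted p = 0.0564), with ribosomal protein genes set equal (0.56, adjusted p = 0.0612) and with the compared groups fitted alone (0.49, adjusted p = 0.158). Pparg changed by 0.44 from 6 to 14 months (adjusted p = 0.138) and by -0.40 from 14 to 18 months (adjusted p = 0.162), neither of which passed.

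These marrow changes were small, and several rested on single arrays. With ribosomal protein genes set equal, or with the marrow arrays fitted alone, 1 of the 9 members passed the overall test, and without bone marrow 18-month replicate 3 there were 2. The falls of Ppard, Rxrb and Rxra from 6 to 18 months missed the threshold with ribosomal protein genes set equal and with the compared groups fitted alone. Those of Ppard and Rxra also missed it with array weights and with ordinary in place of moderated tests. Under the ribosomal scaling the falls of Rxra and Ppargc1a from 14 to 18 months were lost too. The fall of Rxrb from 6 to 18 months and that of Ppargc1a from 14 to 18 months passed in every fit that left out 1 array. Rxra from 6 to 18 months missed the threshold in 13 of the 18 fits that left out 1 array (-0.48 to -0.38, adjusted p = 0.0514 to 0.168), and from 14 to 18 months it did so without bone marrow 14-month replicate 1 (-0.43, adjusted p = 0.098), 18-month replicate 1 (-0.43, adjusted p = 0.0965) or 18-month replicate 3 (-0.48, adjusted p = 0.0758). Ppard from 6 to 18 months was -0.43 (adjusted p = 0.0556) without 6-month replicate 1, its highest array at 8.17, and -0.66 (adjusted p = 0.0745) without 18-month replicate 2. Ppargc1a from 6 to 14 months missed it without 6-month replicate 2 (0.44, adjusted p = 0.0807), 14-month replicate 2 (0.52, adjusted p = 0.0648) or 14-month replicate 3 (0.40, adjusted p = 0.149). In marrow the B-lineage marker list moved along with Ppargc1a, with 8 of 12 markers higher at 14 than at 6 months (list mean 7.39 to 7.58 at 6 months, 8.33 to 8.64 at 14 months and 7.20 to 7.57 at 18 months, with Rag2 above the low-signal limit on no marrow array), and its part in the result was not tested.

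In epididymal adipocytes the overall age test was passed by 6 of 9 members (Pparg, Ppard, Rxra, Rxrg, Ppargc1a and Ppargc1b), where 31% of all probe sets passed. From 14 to 18 months Rxrg rose 2.19-fold (log2 change 1.13, SE 0.22, adjusted p = 6.95e-04), Ppargc1a 2.12-fold (1.08, SE 0.14, adjusted p = 8.12e-06), Pparg 1.61-fold (0.69, SE 0.18, adjusted p = 0.00684) and Ppargc1b 1.35-fold (0.43, SE 0.13, adjusted p = 0.0189), while no member fell. Among all probe sets 24.1% were called in this comparison, 11.7% higher and 12.5% lower. For each of Pparg, Rxrg, Ppargc1a and Ppargc1b the 3 arrays at 18 months were above the 3 at 14 months, and for Pparg, Rxrg and Ppargc1a they were above those at 6 months too. Compared with 6 months, Pparg (0.86, adjusted p = 0.00254) and Ppargc1a (1.02, adjusted p = 4.98e-05) were higher at 18 months and Rxra was lower (-0.49, adjusted p = 0.025), where 16.2% of all probe sets were called. Rxrg was 0.55 higher on the log2 scale, which did not pass (adjusted p = 0.0983).

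Between 6 and 14 months the epididymal changes that passed the test were downward. Ppard fell by 0.68 (SE 0.18, adjusted p = 0.0119) and Ppargc1b by 0.45 (SE 0.13, adjusted p = 0.019), where 7.51% of all probe sets were lower (17.7% called in all). Rxra (-0.41, adjusted p = 0.0565) and Rxrg (-0.59, adjusted p = 0.0748) missed the threshold, but their calls depended on the processing. Both passed with array weights, with arrays centred on the median, with ribosomal protein genes set equal and with the compared groups fitted alone. In the 18 fits that left out 1 array, Rxra passed in 5 and Rxrg in 3. Both also passed with the replicate number as a block (adjusted p = 0.0419 and 0.0405). That block joins arrays of different ages and depots that share only a number, so that no conclusion is drawn from it. The 2 Ppargc1a probe sets disagreed here, with -0.07 (adjusted p = 0.801) for the brighter and -0.60 (adjusted p = 0.0256) for the dimmer, which exceeded the low-signal limit on 2 of 18 arrays. Ppara and Nr1h3 passed no age test in either depot, their largest epididymal changes being 0.18 from 14 to 18 months (adjusted p = 0.413) and 0.22 from 6 to 18 months (adjusted p = 0.543).

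The calls for Ppard (-0.60, adjusted p = 0.0612 without 6-month replicate 2; -0.59, adjusted p = 0.0618 without 14-month replicate 2), Rxra (-0.44, adjusted p = 0.0979 without 6-month replicate 2; -0.37, adjusted p = 0.126 without 18-month replicate 3) and Ppargc1b depended on single epididymal arrays. Ppargc1b missed the threshold between 6 and 14 months without 6-month replicate 3 (-0.39, adjusted p = 0.0852) or 14-month replicate 1 (-0.36, adjusted p = 0.112), and between 14 and 18 months without 14-month replicate 1 (0.34, adjusted p = 0.103), 18-month replicate 1 (0.42, adjusted p = 0.0631) or 18-month replicate 3 (0.38, adjusted p = 0.0828). The rises of Pparg, Rxrg and Ppargc1a from 14 to 18 months passed in every fit with 1 array left out. Over the same interval 15 of 16 macrophage markers (median log2 change -3.44), 12 of 12 endothelial markers (-1.83) and 11 of 13 fibroblast and mesothelial markers (-1.72) fell in the fat pad, 7 of 16 neutrophil markers rose (median 1.16), and 2 of 13 adipocyte markers rose (median 0.36). The part of these shifts in the rises of Pparg, Rxrg and the coactivators was not tested.

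**Figure D4:**
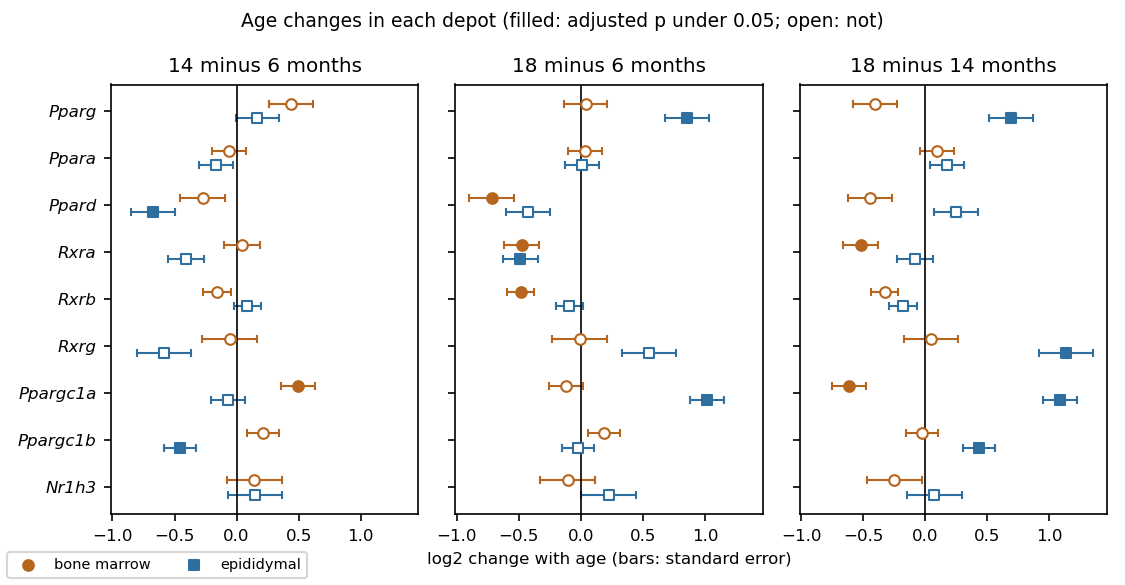
Log2 change with age (horizontal axis) of each gene between 6 and 14, 6 and 18, and 14 and 18 months, in bone marrow (circles) and epididymal adipocytes (squares); filled symbols passed the test at an adjusted p under 0.05, open ones did not, and bars are standard errors. From 14 to 18 months Pparg, Rxrg, Ppargc1a and Ppargc1b are filled on the right for epididymal adipocytes (0.69, 1.13, 1.08 and 0.43), and Rxra and Ppargc1a are filled on the left for bone marrow (-0.52 and -0.61).

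Whether age acted alike in the 2 depots was tested directly, as the difference between the age changes. An overall test of this difference was passed by Pparg, Rxrg, Ppargc1a and Ppargc1b, 4 of 9 members, where 20.4% of all probe sets passed it. The clearest case was Ppargc1a from 14 to 18 months, when it fell by 0.61 in marrow and rose by 1.08 in the fat pad, a difference of -1.70 (SE 0.19, adjusted p = 5.91e-06). For Pparg the difference was -1.09 over the same interval (SE 0.25, adjusted p = 0.00486), with -0.40 in marrow and 0.69 in the fat pad. For Rxrg it was -1.09 (SE 0.31, adjusted p = 0.0212), but the marrow values of Rxrg were all under the low-signal limit, so that this difference rests on the fat pad. In this comparison 15.8% of all probe sets were called, with the marrow change the lower for 8.06% of all. Between 6 and 18 months the age change of Ppargc1a (-1.14, adjusted p = 0.00132) and Pparg (-0.82, adjusted p = 0.0482) differed, where 8.51% were called, and between 6 and 14 months that of Ppargc1b (0.66, adjusted p = 0.0218), where 11.6% were called. From 6 to 14 months the brighter Ppargc1a probe set missed the threshold (0.56, adjusted p = 0.0701). The dimmer, above the low-signal limit on 2 of 18 arrays, passed it (0.97, adjusted p = 0.0166), as did the mean of the probe sets. The Ppargc1b difference missed the threshold with the replicate number as a block (adjusted p = 0.0605), with array weights (0.60, adjusted p = 0.055) and with the compared groups fitted alone (adjusted p = 0.0575). The difference for Rxrg missed the threshold without bone marrow 14-month replicate 2 (-1.03, adjusted p = 0.0511) or 18-month replicate 2 (-0.88, adjusted p = 0.0631), or without epididymal 14-month replicate 3 (-0.996, adjusted p = 0.0538), 18-month replicate 1 (-1.02, adjusted p = 0.0575) or 18-month replicate 2 (-1.05, adjusted p = 0.0509).

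Known targets of the receptors were mostly lower in bone marrow. Of 18 measured PPARγ targets of fat cells, all 18 were lower in bone marrow over the ages, with a median log2 difference of -4.39. They were led by Cidec (-7.48), a lipid droplet protein, Retn (-6.96), the adipokine resistin, Plin1 (-6.64), which coats lipid droplets, and Aqp7 (-6.53), the glycerol channel. Aqp7 exceeded the low-signal limit on 5 of 9 marrow arrays. Of 22 targets of PPARα and PPARδ, mostly enzymes of fatty acid oxidation, 17 were lower and 1 higher (median -1.83). The lipoprotein receptor Vldlr (-5.22), the fatty acid transporter Slc27a1 (-5.00), the lipase inhibitor Angptl4 (-4.62) and Pdk4 (-4.60), a kinase that spares glucose from oxidation, differed most. Pdk4 exceeded the low-signal limit on 3 of 9 marrow arrays and Vldlr on 7 of 9. Of 15 LXR targets, among them Nr1h3 itself, 11 were lower and 1 higher (median -1.57), with the lipogenic enzymes Fasn (-5.30) and Scd1 (-4.18), the apolipoprotein Apoc1 (-3.95) and the cholesterol exporter Abca1 (-2.40) in front. Apoc1 exceeded the low-signal limit on 7 of 9 marrow arrays. Over all 23410 probe sets 7307 were lower and 6293 higher. Several of the PPARγ targets also stand in the adipocyte marker list, so that these counts are not independent of it.

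The partners of the receptors were split between the depots. As over all probe sets, of which 26.9% were higher and 31.2% lower, members of these lists went both ways. Among 11 other receptors that pair with an RXR, 4 were higher and 5 lower in bone marrow (median 0.03). The 5 include Nr1h4, which was under the low-signal limit on every array of both depots. The nuclear receptors Nr4a2 (1.67) and Nr4a1 (1.48), products of immediate early genes, were higher, the thyroid hormone receptor Thra was lower (-1.45), and Thrb was under the low-signal limit on every marrow array and at least 4.46-fold lower there. Among 15 partners and effectors of PGC-1, 5 were higher and 5 lower (median 0.04): Gabpb1 (1.79) and Nrf1 (1.41), which act on nuclear genes for mitochondrial proteins, were higher, and Lpin1 (-3.89), the phosphatidate phosphatase that also coactivates PPARα, and the mitochondrial transcription factor Tfb2m (-1.66) were lower. Of 16 coactivators and corepressors, 10 were higher and 6 lower (median 0.46). The acetyltransferase Ep300 was higher (1.52), and the corepressor Nrip1 (-1.95) and the corepressor subunit Tbl1x (-1.55) were lower, while Ebf2, a factor of adipocyte precursors and brown fat, was at least 6.58-fold lower, since it was under the limit on all marrow arrays. With ribosomal protein genes set equal, 4 coregulators were higher in place of 10, and 12 PGC-1 partners were lower in place of 5. The medians of these 3 lists were all smaller in size than the shift of -0.68 brought by that scaling.

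Of 18 regulators of Pparg transcription, 8 were higher and 9 lower in bone marrow (median -0.34), against 26.9% higher and 31.2% lower over all probe sets. The largest differences were those of Cebpa (-3.23), Srebf1 (-2.35), Klf15 (-2.32) and Zfp423 (-2.30), all activators of the fat cell program and all lower. Activators did not all go this way. Cebpb (mean 9.64 in bone marrow and 8.28 in epididymal adipocytes) and Klf5 (8.21 and 6.29), which the paper groups with early adipocyte differentiation, had higher means in bone marrow. With ribosomal protein genes set equal, 4 regulators were higher in place of 8. Of 17 genes of retinoid supply and ligand carriage, 9 were lower and 2 higher (median -0.90). Rbp4 (-7.15), the plasma carrier of retinol, Fabp4 (-5.11), a fatty acid carrier, and the retinol saturase Retsat (-3.47) were lower, and the retinol dehydrogenase Dhrs9 (3.19) was higher. Rbp4 exceeded the low-signal limit on 2 of 9 marrow arrays and Dhrs9 on 4 of 9 epididymal arrays, which limits how well the sizes of these differences were measured.

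**Figure D5:**
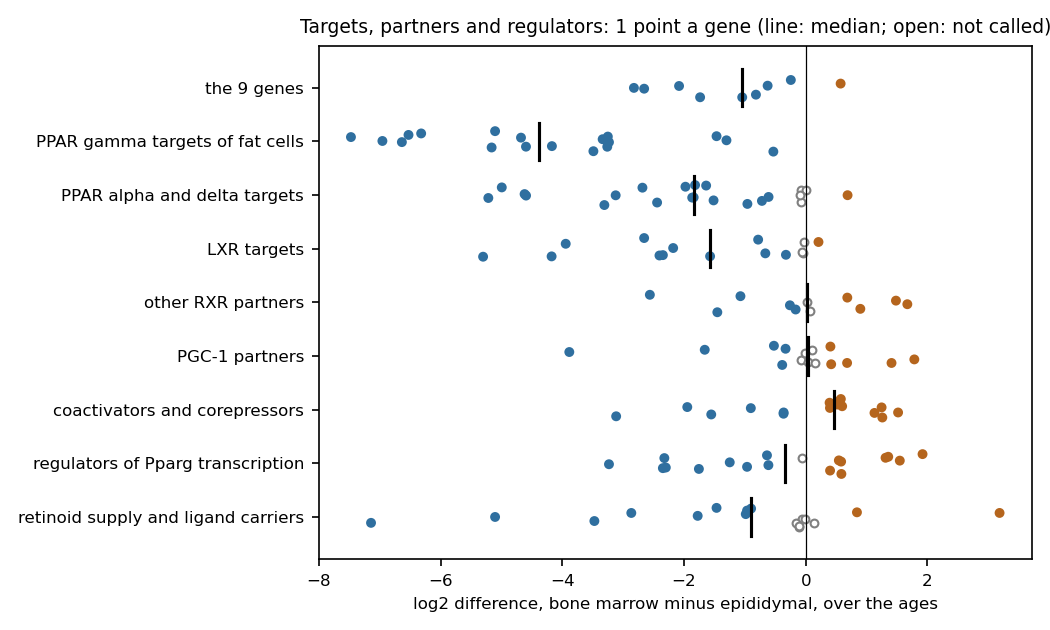
Log2 difference, bone marrow minus epididymal over the ages (horizontal axis), for the 9 genes and 8 lists of related genes; each point is a gene, filled where it passed the test, and the vertical line is the list's median. All 18 PPARγ targets lie to the left of 0 (median -4.39), whereas the other RXR partners (0.03) and PGC-1 partners (0.04) are centred near it.

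In the fat pad, 13 of 22 targets of PPARα and PPARδ were higher and 0 lower at 18 than at 14 months, with a median log2 change of 0.45, whereas over all probe sets 2728 were higher and 2919 lower (median -0.01). Over this interval 15 of 16 macrophage, 12 of 12 endothelial and 11 of 13 fibroblast and mesothelial markers fell there, and their part in the target changes was not tested. Pdk4 (2.23, adjusted p = 2.24e-08) and the mitochondrial thioesterase Acot2 (1.14, adjusted p = 8.68e-04) rose most. From 6 to 14 months 8 of the 22 had fallen and 1 had risen, with Pdk4 at -1.84 and Angptl4 at -1.42. Among all probe sets 17.7% were called in that interval, 7.51% of them all being lower. In the same interval 14 of 16 macrophage, 9 of 12 endothelial and 12 of 13 fibroblast and mesothelial markers rose in the fat pad and 1 macrophage marker fell, and their part was not tested. Of the PPARγ targets 4 of 18 rose from 14 to 18 months and 0 fell (median 0.37), led by the fatty acid carrier Fabp5 (1.27) and the lactate receptor Hcar1 (1.15). Among LXR targets 2 of 15 rose and 3 fell (median -0.14), the phospholipid transfer protein Pltp falling by 1.25 and the ubiquitin ligase Mylip by 0.97. In marrow, the lipid droplet protein Plin2 fell from 14 to 18 months by 1.03, where 1 of the 22 PPARα and PPARδ targets was higher and 3 were lower (13% of all probe sets called). From 14 to 18 months the difference between depots in the age change was called for 2 of these 22 (Pdk4, -1.99, and Plin2, -1.73) and for 6 of the 18 PPARγ targets, all lower in marrow relative to the fat pad, where 15.8% of all probe sets were called and 8.06% in that direction. Pdk4 exceeded the low-signal limit on 0 of 3 marrow arrays at 14 and at 18 months, so that its difference rests on the fat pad.

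In the fat pad 2 of 18 regulators of Pparg rose and 4 fell from 6 to 14 months, as did 2 and 1 of 17 genes of retinoid supply (17.7% of all probe sets called), and from 14 to 18 months 3 and 4 regulators and 2 and 3 genes of retinoid supply did (24.1% called). Egr2, a zinc finger factor induced early in adipogenesis, fell by 3.28 from 6 to 14 months (adjusted p = 2.49e-08) and rose by 1.80 in marrow over the same interval, a difference of 5.08 between the depots (adjusted p = 3e-08). Cebpd, another early factor, fell by 1.87 in the fat pad, and Cebpb rose by 1.08 there from 14 to 18 months. The retinaldehyde dehydrogenases Aldh1a2 (1.63) and Aldh1a3 (1.46), which make retinoic acid, rose in the fat pad from 6 to 14 months and fell from 14 to 18 months by 2.14 and 1.51, the intervals in which its macrophage, endothelial and fibroblast markers rose and fell, and the part of these markers was not tested. The corepressor Nrip1 fell by 1.55 from 6 to 14 months and the coactivator Ncoa3 by 1.26 from 14 to 18 months.

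For the 5 members whose depots differed by 2-fold or more, the genes with the most similar profiles were found by the root mean square distance between log2 profiles centred on their own means, over the 18 arrays and 19938 genes. They were Mr1 (0.17), Fgf1 (0.22) and Sgcb (0.25) for Pparg, Dolpp1 (0.15), Tsc2 (0.15) and Cyhr1 (0.15) for Ppara, and Mprip (0.15), Klf9 (0.18) and Ptpn21 (0.19) for Rxra. For Rxrg, whose marrow values were under the low-signal limit, they were Cdkn2c (0.26), Negr1 (0.26) and Prr16 (0.27), and for Nr1h3 they were Pex19 (0.19), Jag1 (0.23) and Fkbp7 (0.25). The points share the depot, age and pool of each array.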

How the data were processed

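RNA of 18 samples (3 for each of 2 depots at 3 ages) was measured on Affymetrix whole-transcript mouse arrays (Mouse Gene 1.0 ST). The paper's methods name gcRMA and quantile normalization in Partek, whereas a figure legend of its supplement names RMA. The deposited log2 expression values were used as they stand, and their array medians, from 5.33 to 5.65, were not equal. Background correction can change the differences of weakly expressed genes. Of 35556 probe sets, the 23410 naming a gene were tested, without a filter on low values; 1621 of these name several genes and were not used for a member. Groups were compared with limma 3.58.1 in R 4.3.3, with 1 mean for each of the 6 groups over all 18 arrays, moderated tests of each contrast and Benjamini-Hochberg adjustment over all tested probe sets. A call is an adjusted p under 0.05. The fit was also run on simulated data with independent noise and few changed probe sets. Those data are simpler than the real ones, so that run checks the code and not the results. The sources used here do not say whether pools of a group share animals; the p-values measure the spread between RNA pools, and the number of arrays limits the precision.

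The members and the gene lists were chosen with earlier results of these data known. Every member is given. From each related list the text names up to 4 genes between depots and up to 2 for each age comparison, taken from those with the largest difference among called genes. Cebpb and Klf5 are named between depots outside this rule, because of the group the paper places them in. Genes of a list without a single-gene probe set were left out of its count. Alternatives were other variance models, scalings, probe set rules and filters, a replicate block and leaving out each array.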

Additional observations from a re-analysis of the deposited data

Results flagged for a closer look

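In 4 of the 9 genes the age change differed between bone marrow and epididymal adipocytes by a test of the difference itself (limma, bone marrow change minus epididymal change on the log2 scale). Among all probe sets 20.4% passed this test over the 3 ages. The shares were 11.6% from 6 to 14 months, 8.51% from 6 to 18 months and 15.8% from 14 to 18 months. The count of members passing over the 3 ages ranged from 2 to 5 in the fits that left out 1 array. For Ppargc1a the difference was -1.139 from 6 to 18 months (adjusted p = 0.00132) and -1.699 from 14 to 18 months (adjusted p = 5.91e-06), and for Pparg it was -0.8191 (adjusted p = 0.0482) and -1.092 (adjusted p = 0.00486). The Pparg difference from 6 to 18 months missed the threshold in 13 of the 18 fits that left out 1 array, where it lay between -0.83 and -0.70 (adjusted p = 0.0516 to 0.132). For Rxrg it was -1.088 from 14 to 18 months (adjusted p = 0.0212), with every bone marrow value under the low-signal limit. For Ppargc1b it was 0.6647 from 6 to 14 months (adjusted p = 0.0218), and it missed the threshold without epididymal 6-month replicate 3 (0.60, adjusted p = 0.0603), bone marrow 14-month replicate 3 (0.61, adjusted p = 0.0615) or epididymal 14-month replicate 1 (0.57, adjusted p = 0.0676), and also with the replicate number as a block (adjusted p = 0.0605), with array weights (0.60, adjusted p = 0.055) and with the compared groups fitted alone (adjusted p = 0.0575). Macrophage, endothelial and fibroblast markers changed with age in the fat pad over the same intervals, and their part in these differences was not tested.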

How the results depend on the processing

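With ribosomal protein genes set equal between groups, Rxrb turned to a log2 difference of -0.1084 over the ages and of -0.06311, -0.008993 and -0.253 at 6, 14 and 18 months, 0 members were higher in bone marrow and 1 changed with age there. Under that scaling 0 PPARα and PPARδ targets, 0 LXR targets, 2 PGC-1 partners, 4 coregulators, 4 regulators of Pparg and 1 gene of retinoid supply were higher in bone marrow, and 12 PGC-1 partners and 15 genes of retinoid supply were lower. Bco1, Crabp2 and Cyp26a1 of the retinoid list were under the low-signal limit on every array of both depots, and the scaling shifts such values too. The median over all probe sets then shifted by 0.148 between 6 and 18 months in bone marrow, and in the fat pad by -0.227 between 6 and 14 months and 0.172 between 14 and 18 months. With the compared groups fitted alone, 1 member changed with age in bone marrow. With single arrays left out, the members higher in bone marrow stayed at 1, those lower ranged from 7 to 8, those changing with age from 2 to 4 in bone marrow and from 4 to 6 in the fat pad, and those whose age change differed between depots from 2 to 5. This last count was 2 when replicate 1 or 3 of either 14-month group, or replicate 1 of the epididymal 18-month group, was left out. No sign of a called value turned under any other setting run. Both depots came from the same mice by the study's methods, but no source used here says that pools of the same number hold the same animals, or whether the pools of a group share animals. The replicate numbers were therefore not taken to pair the depots: the correlations of deviations between same-numbered arrays ran from -0.136 to 0.153 over 9 pairs, and 4 of 9 bone marrow arrays were matched best by their own number. For tests between depots, those of the difference in age change included, the block was the replicate number within each age. For age changes within a depot it was the number over all arrays. With the replicate number as a block, 13314 probe sets in place of 13600 were called between depots, 8 of the 9 members stayed called over the ages (Ppard did not, adjusted p = 0.0581), and 4193 in place of 4770 probe sets had a different age change. The block also lost the Ppargc1b difference in age change from 6 to 14 months (adjusted p = 0.0605), added the epididymal falls of Rxra (adjusted p = 0.0419) and Rxrg (adjusted p = 0.0405) from 6 to 14 months, and changed no other pairwise call of a member; in the overall test 3 members in place of 4 then had a different age change. With the low-signal limit at the 90th and the 99th percentile, 8 and 5 members exceeded it on all arrays, in place of 6 at the 95th.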
